A study of Mus musculus with 11 samples.

Results

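The data compared here are mRNA profiles of 4 mouse tumor cell lines, 2 grown from a uterus (F319 uterus and F333 uterus) and 2 from an ovary (F339 ROV and F318 LOV, grown from a right and a left ovary). They are 4 of the 11 lines that were sequenced, chosen because their libraries carry the numbers 8 to 11 in the labels and hold little mRNA of skeletal muscle fibers, and because these library numbers hold both organs. All 11 lines carry the transgene Ovgp1-Trp53-R270H-Myc, in which the promoter of Ovgp1, a gene of the oviduct epithelium, drives mutant p53 and MYC. The mice were heterozygous for the transgene, which was placed at the Trp53 locus, and the 4 lines came from 4 different mice. The paper reports, from PCR, that the cell lines had lost the wild-type Trp53 allele. The ovary lines were started from minced ovary and fallopian tube and the uterus lines from the middle of the uterus, and they were grown untreated in RPMI 1640 medium. The labels give every line, those from the uterus included, as ovarian cancer, no line without the transgene is among the samples, and each line is a single library, so each organ is represented by 2 libraries and the only error is the difference between them.

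The uterus, the oviduct and the upper vagina form from the Müllerian duct, whereas the ovary forms from the gonadal ridge. Along the Müllerian duct, Hox genes, which encode transcription factors that set position along the body axis, are expressed in overlapping domains, with Hoxa11 in the uterus and Hoxa13 farthest toward the vagina. Keratins such as Krt7 form the intermediate filaments of simple epithelia of the reproductive tract, while fibroblast-like cells make vimentin, fibronectin and fibrillar collagens.

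The 4 libraries held 21542612 to 27044598 counts on genes. Levels are given as CPM, counts of a gene per 1000000 counts of its library, so that the limit of detection, set at 3 counts, lay between 0.111 and 0.139 CPM. The skeletal muscle fiber list took 1.02% and 0.157% of the counts in F339 ROV and F318 LOV and 0.683% and 1.23% in the F319 and F333 uterus lines, against 7.51% to 14.2% in libraries 1 to 7. The order of the 4 lines by this share therefore did not follow the organ. The Y-linked list summed to 1.75 to 19.2 CPM in the 4 lines and to 128 to 174 CPM in the others. The 4 lines come from organs of female mice, which carry no Y chromosome. The sums were 19.2 and 1.75 CPM in F339 ROV and F318 LOV and 10.5 and 11.4 CPM in F319 and F333 uterus. The source of these reads was not tested. Of the muscle fiber and Y-linked genes, 26 and 4 were tested and 0 were among the genes that separate the organs below, from which nothing is read, since these genes are few and 0.353% and 0.842% of all tested genes were separated.

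A gene was called separated when the lower line of one organ exceeded the higher line of the other by at least 1 on the scale of log2(CPM + 1), about a doubling. Of 15566 genes tested, 55 (0.353%) were separated with both uterus lines higher, and 131 (0.842%) with both ovary lines higher. Without a minimum gap, the 2 sides did not overlap in 1910 genes (12.3%) with the uterus higher and in 2202 genes (14.1%) with the ovary higher. Of the separated genes, 29 of the 55 and 77 of the 131 were at 10 CPM or more in both lines of the higher organ. In 18 of the 55 and 30 of the 131, both lines of the lower organ were under 1 CPM. In bulk RNA, fewer cells of a type cannot be told apart from less RNA per cell.

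No gene (0%) passed an adjusted p of 0.05 in edgeR's quasi-likelihood test, in which 522 genes had an unadjusted p under 0.05, 196 of them higher in the uterus lines. The smallest adjusted p was 0.755, shared by Tmem176b, Tspan18, Tmem176a and Cotl1, all higher in the ovary lines. DESeq2 called 117 genes, 32 higher in the uterus lines and 85 higher in the ovary lines. With 2 lines against 2, an exact permutation test of a single gene cannot give a two-sided p below 0.333, so the separated genes are given as effect sizes. The median log2 fold change over all tested genes, uterus against ovary, was 0.02.

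**Figure D1:**
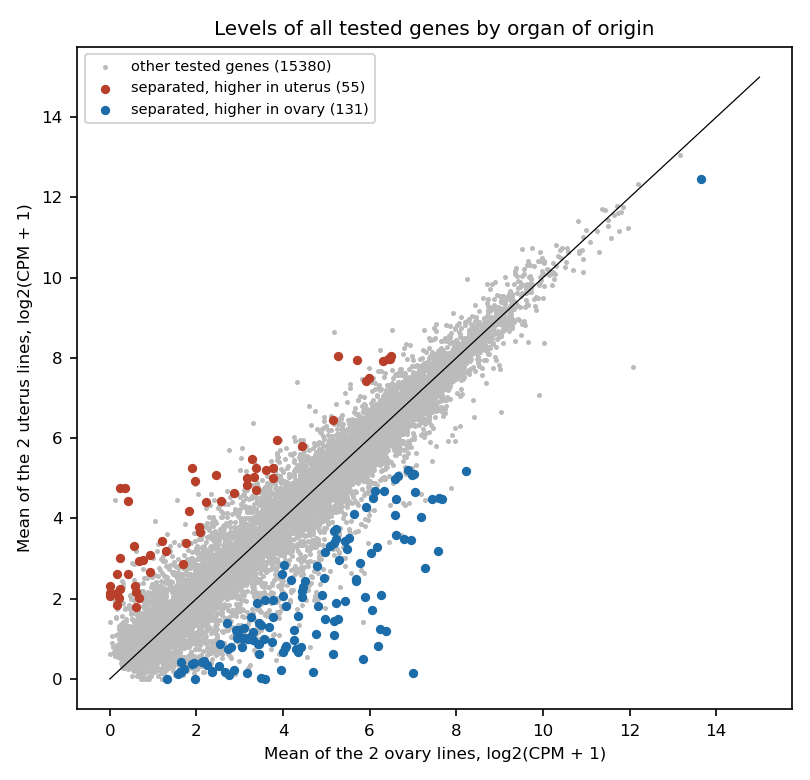
Each point is 1 of the 15566 tested genes, with the mean log2(CPM + 1) of the 2 ovary lines on the horizontal axis and of the 2 uterus lines on the vertical axis. The 55 red and 131 blue points are the separated genes, and the black line marks equal means. The blue point at the upper right is Fn1, the only separated gene at such a level.

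The distances between lines are given as a description. The Euclidean distance over all tested genes in log2(CPM + 1) was 122.9 between the uterus lines, the largest of the 6 pairs, and 114.9 between the ovary lines. The 4 pairs that join an ovary with a uterus line lay at 111.4 to 114.7. The uterus lines differed by at least 1 on the log2 scale in 3043 genes (19.5%), and the ovary lines in 2248 genes (14.4%). A single line stood at least 1 above the other 3 in 221 genes (F333 uterus) to 385 genes (F339 ROV), and at least 1 below them in 127 genes (F339 ROV) to 377 genes (F318 LOV). A gap of 1 line against 3 and a gap of 2 against 2 are not reached equally often when nothing differs, so these counts are not set against the 55 and 131 separated genes.

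**Figure D2:**
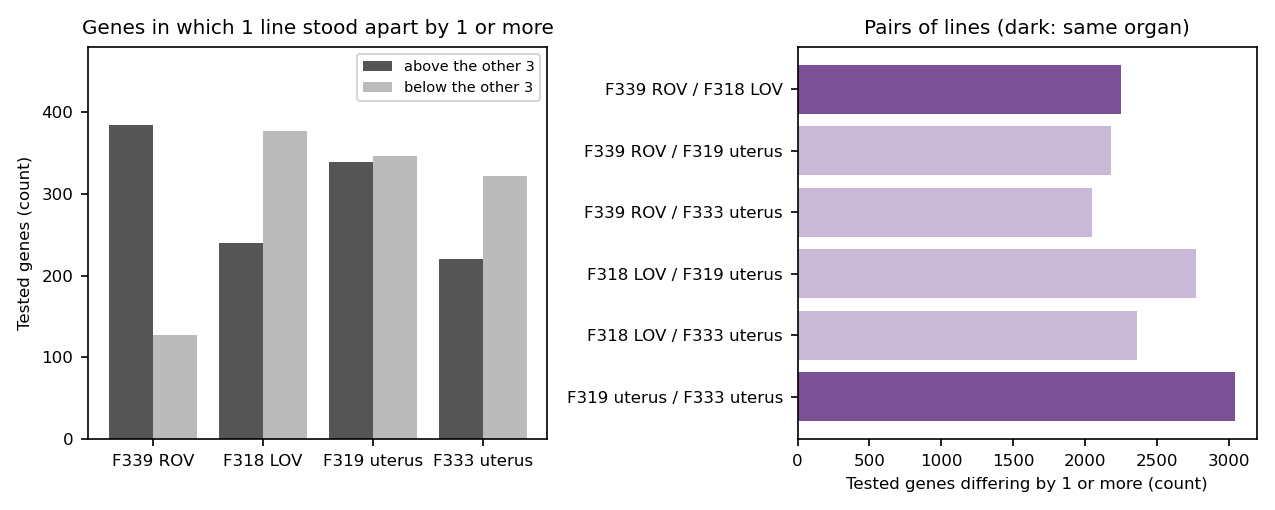
The left bars count the tested genes in which 1 line lay at least 1 above (dark) or below (light) all other 3 lines on the scale of log2(CPM + 1). The right bars count the genes that differed by at least 1 in each pair of lines, with pairs of the same organ in dark purple. The uterus pair has the longest bar, 3043 genes.

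Genes in which 1 line stood alone include major products of these cells, and those named here were chosen after their values were seen. Col1a2, which encodes the second chain of type I collagen, was at 3087 and 6109 CPM in F339 ROV and F318 LOV, at 7760 CPM in the F333 uterus line and at 5.21 CPM in the F319 uterus line. Col1a1, the partner chain, was at 7431 CPM in the F319 uterus line and at 7228 to 11640 CPM in the other 3. The low level of Col1a2 in F319 uterus was thus not shared by Col1a1. Col10a1, a collagen of cartilage growth zones, was at 250.3 CPM in F319 uterus and at most 0.928 CPM in the others. Sfrp2 and Sfrp1, secreted inhibitors of Wnt signaling, were at 338.6 and 196.1 CPM in F339 ROV and at most 1.18 and 1.83 CPM in the other lines. Cspg4, a surface proteoglycan of pericytes, was at 350.1 CPM in F333 uterus and at 22.1 CPM or less elsewhere. P2rx3, an ATP-gated channel, was at 199.5 CPM in F318 LOV and at 1.48 to 12.5 CPM in the others.

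Krt7 and Hoxa11, the marker genes given for this comparison, were chosen with these values known, so their levels are a description and no check of the organ labels. Krt7 was at 0.392 and 0 CPM in F339 ROV and F318 LOV and at 16.6 and 40.5 CPM in the F319 and F333 uterus lines, with 95% Wilson intervals, which cover counting error only, of 0.213 to 0.722, 0 to 0.168, 15.1 to 18.2 and 37.9 to 43.3 CPM. Both uterus lines were above both ovary lines, by 42.3-fold between the nearest values, and the gap of 3.66 on the log2 scale was the largest of any gene in this direction. The edgeR log2 fold change was 7.19 ± 1.51 (SE, n = 2 lines against 2, unadjusted p = 0.00476, adjusted p = 1 in the quasi-likelihood test), while DESeq2 called the gene, with an adjusted p of 1.15e-07. Leaving out 1 line at a time gave 6.25 to 12.46, the latter without F339 ROV, where the remaining ovary line has 0 counts and the fitted value depends on the prior count. Gm671 overlaps Krt7 on the opposite strand, and the strand setting of the counting is not given in the sources used here. For Hoxa11, F339 ROV and F318 LOV had 1.84 and 22.4 CPM, and the F319 and F333 uterus lines 41.7 and 48.1 CPM. The uterus lines were higher, but F318 LOV came within 1.87-fold of F319 uterus, and with a gap of 0.87 Hoxa11 was not separated (log2 fold change 1.90 ± 1.11 SE, adjusted p = 1 in edgeR). The log2 fold change was 1 without F339 ROV and 4.65 without F318 LOV. Hoxa11os, an RNA transcribed across the 5′ end of Hoxa11 from the other strand and named after its values were seen, was at 0.235 and 3.27 CPM in the ovary lines and 12.2 and 8.03 CPM in the uterus lines, and was separated. The 2 genes overlap by position.

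Among the listed epithelial markers, Krt7 was the only separated gene. Of 23 genes of the uterine and oviduct epithelium, a list without the keratins Krt80, Krt87 and Krt88 described below, 7 passed the filter on low counts, 1 (Krt7) was separated with the uterus higher and 0 with the ovary higher, where 0.353% and 0.842% of all tested genes were, and 15 were under 1 CPM in all 4 lines. Their median log2 fold change was -0.60, against 0.02 over all tested genes. Krt8, the usual partner of simple epithelial keratins, was at 0.314 and 0 CPM in the ovary lines and 0.296 and 0 CPM in the uterus lines. Krt18, which pairs with Krt8, was at 1.10 and 0.175 CPM and at 0.555 and 0.279 CPM. Epcam, an epithelial adhesion molecule, was at 2.12 and 0 CPM in the ovary lines and 0.703 and 0 CPM in the uterus lines. Pax8, a transcription factor of Müllerian epithelium, was at 0.157 and 0.218 CPM and at 0.259 and 0 CPM. These markers were low in all 4 lines, and so was Ovgp1, the gene whose promoter drives the transgene, at 0.829 to 1.45 CPM. The mesenchymal list, in contrast, was measured in full, with all 20 genes tested and a median log2 fold change of -0.12. Of these, 2 were separated with the ovary higher, Thy1 and Fn1, which are described below, where 0.842% of all tested genes were. Of the 20 genes, 3 did not overlap with the uterus higher and 6 with the ovary higher, where 12.3% and 14.1% of all tested genes did. Vim, which encodes vimentin, was at 2179 and 3202 CPM in the ovary lines and 3227 and 3504 CPM in the uterus lines.

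Of 18 genes of the ovarian surface and mesothelium, 8 were tested and 0 were separated, where 0.353% and 0.842% of all tested genes were. Of the 8, 1 did not overlap with the ovary higher, where 14.1% of all tested genes did. The median log2 fold change was 0.38, and nothing is read from counts over so few genes. Wt1, a transcription factor of the ovarian surface and of serous carcinoma, was at 0 and 5.85 CPM in F339 ROV and F318 LOV and at 0 in both uterus lines. Of 20 genes of granulosa and theca cells and steroid synthesis, 18 were in the table, 9 were tested and 1 was separated with the ovary higher, where 0.842% of all tested genes were. This was Fst, which encodes the activin-binding protein follistatin. The median of the list was -1.004. Fst was at 62.9 and 40.7 CPM in the ovary lines and 14.3 and 1.07 CPM in the uterus lines. Foxl2, the defining factor of granulosa cells, was at 0 in 3 lines and at 0.148 CPM in F319 uterus.

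After Krt7, the widest gaps in favor of the uterus lines were those of Hoxc11 and Krt80. Krt80, a type II keratin, was at 3.33 and 2.18 CPM in F339 ROV and F318 LOV and at 33.8 and 41.4 CPM in the F319 and F333 uterus lines, 10.1-fold apart between the nearest values. Krt88, another keratin gene, had 0 counts in both ovary lines and reached 2.85 and 3.99 CPM in F319 and F333 uterus, at least 54.1-fold higher when 3 counts are allowed over both ovary libraries. Hoxc11, the HoxC gene described below, was at 0.549 and 0.175 CPM in the ovary lines and 16.7 and 25.3 CPM in the uterus lines. In each of these genes the 2 uterus lines lay closer to each other than to either ovary line.

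Most of the other 8 named genes of this direction were at low levels in the ovary lines. Raet1e, which encodes a ligand of the activating receptor NKG2D on natural killer cells, was at 8.08 and 9.56 CPM in the ovary lines and 43.7 and 43.3 CPM in the uterus lines. Its close relatives in the Raet1 family can share reads, so its level is uncertain. Hspb2, a small heat shock protein of muscle, was at 2.71 and 2.44 CPM in the ovary lines and 23.8 and 12.3 CPM in the uterus lines. The muscle fiber genes took 1.02% and 0.157% of the counts in F339 ROV and F318 LOV and 0.683% and 1.23% in F319 and F333 uterus, and their part in the Hspb2 levels was not tested. Ccdc40, which is needed to assemble motile cilia, was at 0.157 and 0.218 CPM in the ovary lines and 3.14 and 4.32 CPM in the uterus lines. Eps8l2, an actin regulator, was at 0.275 and 0.0873 CPM against 10.9 and 4.46 CPM. B3gnt3, which extends sugar chains on proteins, was at 0.588 and 0.349 CPM against 4.33 and 17.6 CPM. Ppef1, a protein phosphatase with calcium-binding motifs, was at 0.157 and 0.0873 CPM against 5.33 and 4.92 CPM. Rps4l, annotated as a transcribed processed pseudogene with sequence like that of a ribosomal protein gene, was at 0.0784 and 0.524 CPM in the ovary lines and 72.2 and 8.87 CPM in the uterus lines, and is uncertain because it can share reads with close copies. Pcdhgc5, a clustered protocadherin that shares its last exons with the other genes of its cluster, was at 1.06 and 0.742 CPM against 8.91 and 6.41 CPM. The uterus lines differed most from each other in Rps4l and B3gnt3, and least in Raet1e and Ppef1.

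**Figure D3:**
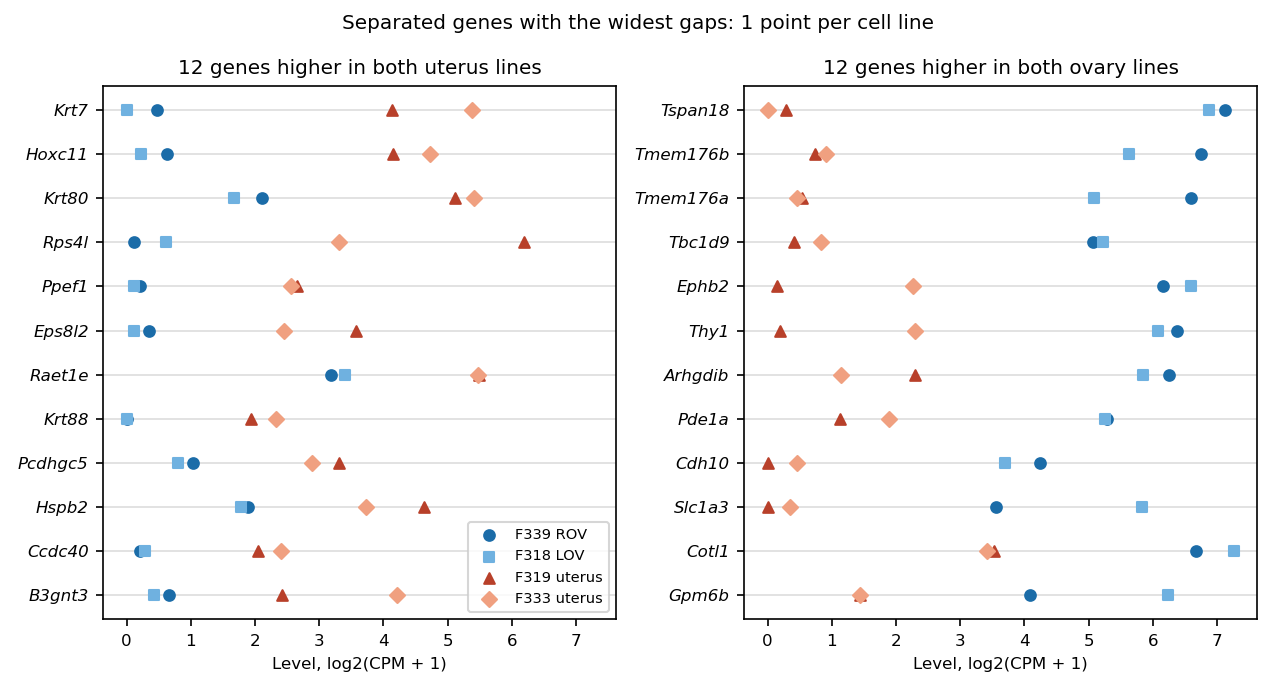
Level of the 12 named genes with the widest gap in each direction, on the scale of log2(CPM + 1), with 1 point for each of the 4 lines (blue, ovary; red and orange, uterus). In all 24 genes the blue and red points do not overlap, and the gaps are wider on the right, up to 6.59 for Tspan18 against 3.66 for Krt7 on the left.

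Krt80, Krt7 and Krt88 lie next to each other on chromosome 15 of GRCm38. The 3 genes span 106 kb, from 101347444 to 101453907, with 4 tested genes in the span. The tested gene between them that was not separated, Krt87, was at 0 and 0.0873 CPM in the ovary lines and 0.887 and 9.24 CPM in the uterus lines, so both uterus lines were again higher. Hoxc11 (chromosome 15, 102954427 to 102957708) lies 1.54 Mb from Krt7 on the same chromosome. In the stretch from 100911043 to 103457708, which reaches 0.5 Mb beyond Krt7 and Hoxc11, 4 of 55 tested genes were separated with the uterus higher and 0 with the ovary higher, where 0.353% and 0.842% of all tested genes were. The stretch was placed around Krt7 and Hoxc11, which are 2 of the 4, so nothing is read from this count. The median log2 fold change of the 55 genes was 0.09, against 0.02 over all genes, and no gene between the keratins and HoxC was separated. Over whole chromosomes, the share of genes separated with the uterus higher ranged from 0 on chromosome 14 to 1.21% on chromosome 15, 7 of 580 genes. The share with the ovary higher ranged from 0 on chromosome 19 to 1.96% on chromosome 9, 16 of 815 genes, and was 1.91% on the X chromosome, 11 of 577.

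**Figure D4:**
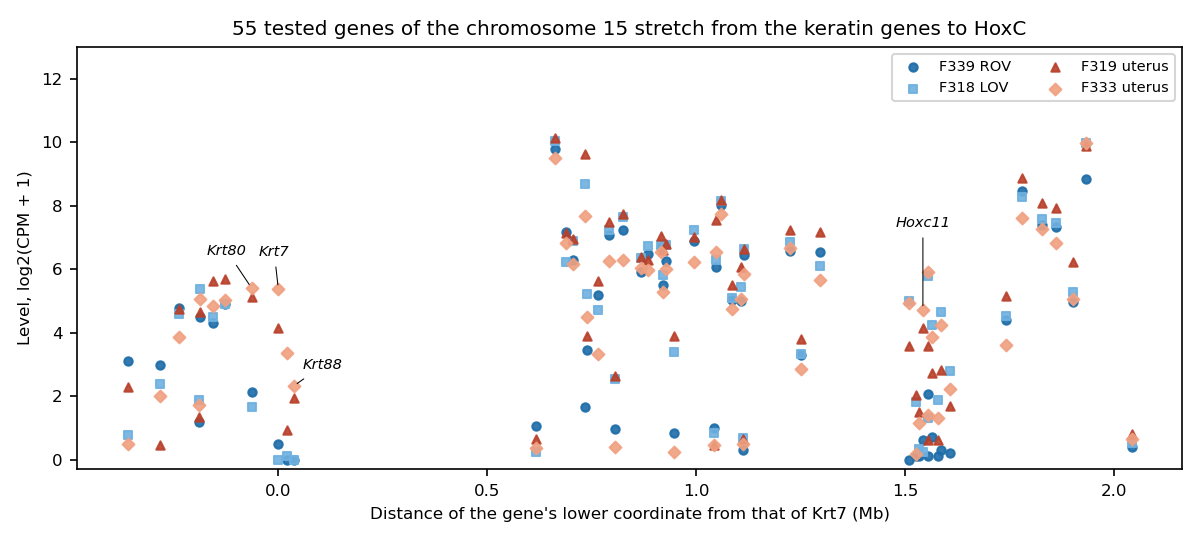
Levels of the 55 tested genes on chromosome 15 around Krt7 and the HoxC cluster in the 4 lines, as log2(CPM + 1), by the distance of their lower coordinate from that of Krt7 in Mb. The 4 separated genes are named. At most other positions the 4 points lie close together or in no order by organ.

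To show what precedes the start of Krt7, the 200 bases that end 50 bases before the start of its RefSeq transcript (GRCm38.p6, plus strand, chr15:101412153-101412352) are printed, with capitals for GGGCGG or its reverse complement CCGCCC, the GC box bound by Sp1-like factors. GENCODE places the start of the gene upstream of this window, at 101411043, so the window precedes the RefSeq start only.

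Krt7: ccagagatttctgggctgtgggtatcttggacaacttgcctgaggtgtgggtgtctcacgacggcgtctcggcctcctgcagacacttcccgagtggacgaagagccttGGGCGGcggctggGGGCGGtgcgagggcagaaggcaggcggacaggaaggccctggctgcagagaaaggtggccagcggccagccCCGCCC

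The window held 3 GC boxes on the 2 strands together, and 0 matches to the E-box, the TATA box and the CCAAT box spelled out with the Hoxd windows below. GGGCGG was found in 24.6% of 32851 windows of this length in the RefSeq table. These matches describe the letters of the window only.

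The gaps in favor of the ovary lines were wider. Tspan18, a tetraspanin of the cell surface (chromosome 2, 93201760 to 93334505), was at 137.9 and 116.5 CPM in F339 ROV and F318 LOV and at 0.222 and 0 CPM in the uterus lines, which had 6 and 0 counts. The nearest values were 525-fold apart. The edgeR log2 fold change was -10.01 ± 0.99 (SE, unadjusted p = 0.000138, adjusted p = 0.755), while DESeq2 gave an adjusted p of 2.87e-33. Both ovary lines were above both uterus lines. The edgeR log2 fold change ranged from -14.50 without F319 uterus, where the remaining uterus line has 0 counts, to -9.23 without F333 uterus. Tmem176b and Tmem176a encode related membrane proteins and lie head to head within 13.3 kb on chromosome 6 (48833818 to 48847071). Tmem176b was at 106.8 and 48.6 CPM in the ovary lines and 0.666 and 0.882 CPM in the uterus lines. Tmem176a was at 95.8 and 33.1 CPM in the ovary lines and 0.444 and 0.371 CPM in the uterus lines. The pair was thus high in both ovary lines and under 1 CPM in both uterus lines. Their annotated ends overlap by position.

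The other 9 named genes of this direction encode surface, cytoskeletal and signaling proteins. Thy1, a surface glycoprotein of fibroblasts, neurons and T cells, was at 82.3 and 66.9 CPM in the ovary lines and 0.148 and 3.90 CPM in the uterus lines. Ephb2, a receptor tyrosine kinase for ephrin-B ligands, was at 70.4 and 95.5 CPM against 0.111 and 3.81 CPM. Cdh10, a type II cadherin, was at 17.8 and 11.9 CPM against 0 and 0.371 CPM. Slc1a3, a glutamate transporter of glia, was at 10.7 and 56.1 CPM against 0 and 0.279 CPM. Gpm6b, a membrane glycoprotein related to myelin proteolipid, was at 16.1 and 74.6 CPM against 1.70 and 1.72 CPM. The ovary lines differed most from each other in Slc1a3 and Gpm6b, in which F318 LOV was higher. Cotl1, which binds actin filaments, was at 100.5 and 152.1 CPM in the ovary lines and 10.5 and 9.66 CPM in the uterus lines, and its log2 fold change of -3.64 had the smallest error among the 12 genes (SE 0.39, unadjusted p = 0.000194, adjusted p = 0.755 in edgeR and 6.64e-13 in DESeq2). Arhgdib, a gene typical of blood cells, was at 75.0 and 56.8 CPM against 3.92 and 1.21 CPM. The list of macrophage and blood genes summed to 17.7 and 9.08 CPM in the ovary lines and to 20.3 and 10.8 CPM in the uterus lines. None of its 6 tested genes was separated and 1 did not overlap, with the uterus higher, where 0.353% and 12.3% of all tested genes were separated or did not overlap in that direction. Nothing is read from a count over so few genes, and 10 of its 14 were under 1 CPM in all 4 lines. Tbc1d9, of a family of Rab regulators, was at 32.6 and 36.5 CPM against 0.333 and 0.789 CPM. Pde1a, a calcium-dependent phosphodiesterase, was at 38.0 and 37.4 CPM against 1.18 and 2.69 CPM.

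Of 39 Hox genes, 38 were in the table and 33 were tested, and 1 and 4 of these were separated, where 0.353% and 0.842% of all tested genes were. Hoxc11 was separated with the uterus higher, and Hoxd9, Hoxd10, Hoxd11 and Hoxb9 with the ovary higher. Without a minimum gap, 4 of the 33 did not overlap with the uterus higher, where 12.3% of all tested genes did, and 10 with the ovary higher, where 14.1% did. The median log2 fold change was -0.02.

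In the HoxD cluster, the genes from Hoxd8 to Hoxd11 and Hoxd13 were all higher in both ovary lines. Hoxd8 was at 95.1 and 47.9 CPM in F339 ROV and F318 LOV and at 11.6 and 25.9 CPM in the F319 and F333 uterus lines, a gap of 0.87. Hoxd9 was at 51.5 and 36.4 CPM against 10.2 and 6.96 CPM. Hoxd10 was at 33.5 and 20.6 CPM against 3.51 and 0.0464 CPM, so the uterus lines also differed from each other. Hoxd11 was at 4.78 and 21.1 CPM in the ovary lines and at 0 and 0.0464 CPM, a single count, in the uterus lines. Hoxd13, the last gene of the cluster, was at 0.863 and 2.18 CPM in the ovary lines and at 0 in both uterus lines, at least 24.1-fold lower when 3 counts are allowed over both uterus libraries, and with a gap of 0.90 was not separated. Hoxd1, Hoxd3 and Hoxd4 were at most 1.76 CPM in any line and were not tested. The separated genes Hoxd11, Hoxd10 and Hoxd9 are neighbors within 20.7 kb of chromosome 2 (74679557 to 74700208).

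Because Hoxd9, Hoxd10 and Hoxd11 are neighbors that were all separated in the same direction, the 200 bases that end 50 bases before their RefSeq starts are shown (GRCm38.p6, plus strand). GENCODE places the start of Hoxd11 upstream of its window, at 74679557, so that window also precedes the RefSeq start only. RefSeq lists Hoxd11 more than once, and the window of a single entry, not the first, is shown. Capitals mark CACGTG, the E-box that MYC binds with MAX, and GGGCGG or CCGCCC, the GC box.

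Hoxd11 (chr2:74682073-74682272): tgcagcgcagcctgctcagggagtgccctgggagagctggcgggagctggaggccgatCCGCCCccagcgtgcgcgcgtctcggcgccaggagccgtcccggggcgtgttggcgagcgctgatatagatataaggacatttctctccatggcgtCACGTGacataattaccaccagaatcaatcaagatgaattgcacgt

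Hoxd10 (chr2:74691641-74691840): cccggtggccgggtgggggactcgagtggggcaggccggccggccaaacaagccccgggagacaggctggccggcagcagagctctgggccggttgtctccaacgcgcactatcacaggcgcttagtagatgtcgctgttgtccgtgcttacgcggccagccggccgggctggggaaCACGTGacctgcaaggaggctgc

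Hoxd9 (chr2:74697513-74697712): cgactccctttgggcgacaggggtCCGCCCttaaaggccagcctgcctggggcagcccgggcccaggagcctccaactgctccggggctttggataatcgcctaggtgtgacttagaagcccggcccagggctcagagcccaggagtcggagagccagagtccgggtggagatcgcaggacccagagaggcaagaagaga

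The Hoxd11 and Hoxd10 windows each held 1 E-box, which 4.34% of the 32851 windows hold, and the Hoxd9 window held 0. The GC box was in the Hoxd11 and Hoxd9 windows, once in each. The TATA box, searched as TATAAA and found in 9.14% of windows, was in none of the 3. Neither was CCAAT, found in 28.4%, and all searches covered both strands.

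In the HoxC cluster, most genes were lowest in F339 ROV. Hoxc6 was at 0.235 CPM in F339 ROV and at 23.8, 6.10 and 18.0 CPM in F318 LOV, F319 uterus and F333 uterus. Hoxc9 was at 0.627 CPM against 17.9, 5.69 and 13.4 CPM, and Hoxc13 at 0 against 30.7, 10.9 and 29.5 CPM. Hoxc10 was at 3.22 CPM in F339 ROV and at 54.2, 11.02 and 58.6 CPM in the others. Hoxc11 and Hoxc12 had other patterns. Hoxc11 was low in F318 LOV as well, and Hoxc12, the gene between Hoxc13 and Hoxc11, was at 0.0784 and 2.53 CPM in F339 ROV and F318 LOV and at 3.07 and 0.139 CPM in F319 and F333 uterus. Hotair, the noncoding RNA gene beside Hoxc11, named after its values were seen, was at 0.0784 and 0.262 CPM in the ovary lines and at 1.85 and 1.21 CPM in the uterus lines. Among the HoxA and HoxB genes, Hoxb9 was at 152.3 and 79.2 CPM in the ovary lines and 3.77 and 25.4 CPM in the uterus lines. Hoxa10, expressed in the uterus, was at 36.5 and 39.2 CPM in the ovary lines and 47.5 and 64.3 CPM in the uterus lines, a gap of 0.27. Hoxa13 was at 7.03 CPM in F319 uterus and at 0.392, 0.917 and 0.186 CPM in F339 ROV, F318 LOV and F333 uterus.

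**Figure D5:**
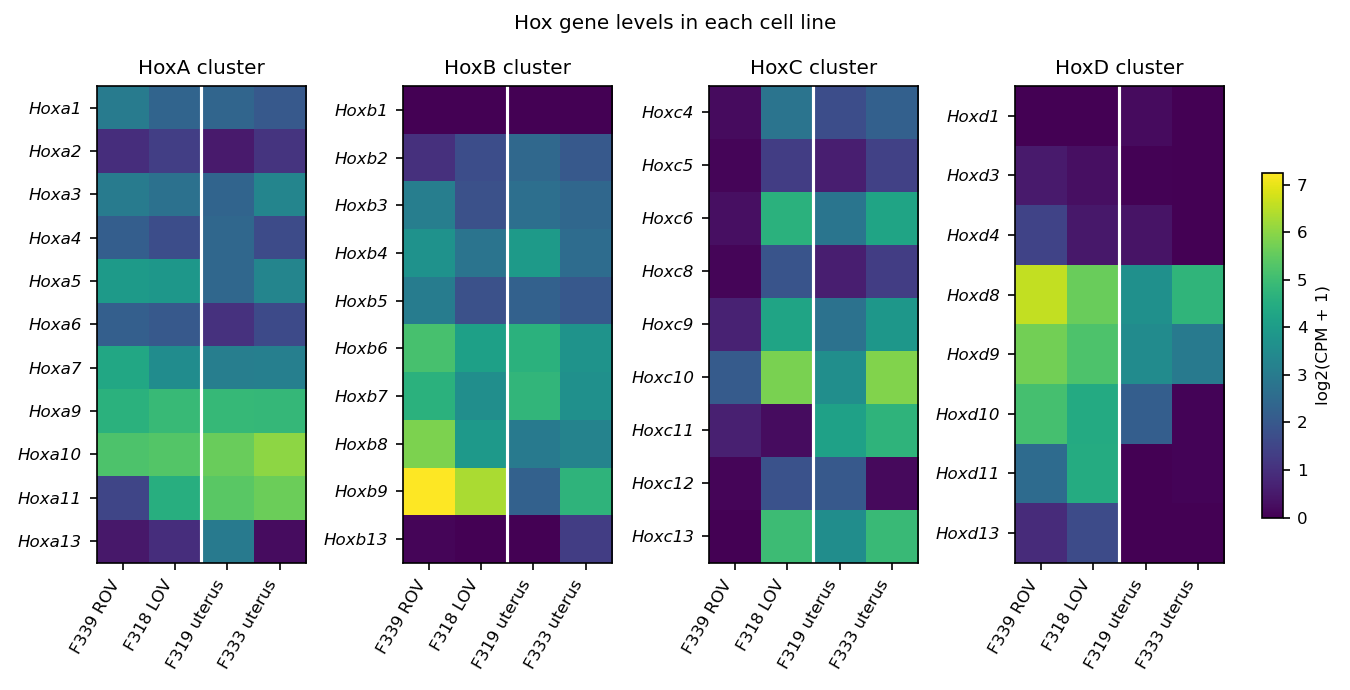
Levels of the Hox genes of the 4 clusters in each line, as log2(CPM + 1) from 0 (dark) to the highest value, Hoxb9 in F339 ROV (yellow), with the ovary lines left and the uterus lines right of the white line. Hoxd8 to Hoxd11 are brighter in both ovary lines, Hoxc11 in both uterus lines, and the F339 ROV column is dark through most of HoxC.

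Of 50 listed factors of position and organ identity outside the Hox genes, 47 were in the table, 32 were tested and 1 was separated with the uterus higher, where 0.353% of all tested genes were. This was Tbx3, a T-box repressor, at 13.1 and 9.56 CPM in the ovary lines and 47.0 and 27.9 CPM in the uterus lines. Without a minimum gap, 2 of the 32 did not overlap with the uterus higher and 6 with the ovary higher, where 12.3% and 14.1% of all tested genes did, and the median log2 fold change was -0.05. Of 20 genes of the uterine stroma, 13 were tested, 0 were separated with the uterus higher, and Wnt5a and Wnt4 were separated with the ovary higher, where 0.842% of all tested genes were. Of the 13, 2 did not overlap with the uterus higher and 3 with the ovary higher, where 12.3% and 14.1% of all tested genes did. The median was 0.29. Hand2, the progesterone-regulated factor of endometrial stroma, was at 0 in all 4 lines. Of 21 steroid and nuclear receptors, 20 were tested and 0 were separated, where 0.353% and 0.842% of all tested genes were. Of the 20, 5 did not overlap with the uterus higher and 3 with the ovary higher, where 12.3% and 14.1% of all tested genes did. The median was 0.18, and nothing is read from counts over so few genes. Pgr, the progesterone receptor, was at 58.2 CPM in F319 uterus and at 0.196, 3.67 and 0.186 CPM in F339 ROV, F318 LOV and F333 uterus. Esr1, estrogen receptor alpha, was at 87.0 CPM in F319 uterus against 3.02, 7.29 and 3.48 CPM. Greb1, an estrogen-induced gene, was at 175.7 CPM in F319 uterus against 1.37, 6.11 and 2.37 CPM. Pgr, Esr1 and Greb1 were therefore high in 1 of the 2 uterus lines. All 21 genes of the list summed to 775.9 and 762.1 CPM in F339 ROV and F318 LOV and to 1086 and 672.5 CPM in F319 and F333 uterus. Without the F319 uterus line, the log2 fold changes of Pgr and Esr1 turned from 3.82 to -3.25 and from 3.05 to -0.47.

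Of 37 listed genes of the Wnt pathway, 30 were tested, and 3 were separated with the ovary higher, where 0.842% of all tested genes were, and 0 with the uterus higher. Of the 30, 3 did not overlap with the uterus higher and 10 with the ovary higher, where 12.3% and 14.1% of all tested genes did. The median log2 fold change was -0.54. Without a minimum gap, 10 of the 30 did not overlap with the ovary higher, where 14.1% of all tested genes did, and 3 with the uterus higher, where 12.3% did. Wnt5a, a ligand of noncanonical signaling, was at 63.3 and 45.5 CPM in F339 ROV and F318 LOV and at 13.1 and 2.92 CPM in the F319 and F333 uterus lines. Wnt4, a ligand needed for Müllerian duct and ovary development, was at 7.84 and 11.6 CPM against 2.59 and 2.88 CPM. Nkd1, an inhibitor that Wnt signaling induces, was at 8.67 and 79.9 CPM against 2.66 and 2.41 CPM. The receptors Fzd1 and Fzd4 were also higher in both ovary lines, at 147.1 and 85.98 CPM against 21.8 and 65.6 CPM and at 55.4 and 36.8 CPM against 7.69 and 19.5 CPM, but were not separated. Axin2, a general target of the canonical pathway, was at 1.33 and 0 CPM in the ovary lines and 1.55 and 0.557 CPM in the uterus lines.

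Of 22 genes of the Hedgehog and Notch pathways, 21 were in the table, 17 were tested, and 2 were separated with the ovary higher and 0 with the uterus higher, where 0.842% and 0.353% of all tested genes were. Of the 17, 1 did not overlap with the uterus higher and 5 with the ovary higher, where 12.3% and 14.1% of all tested genes did, and the median log2 fold change was -0.61. Gli2, a transcription factor of the Hedgehog pathway, was at 10.04 and 24.8 CPM in the ovary lines and 0.148 and 1.72 CPM in the uterus lines. Hey1, a Notch target, was at 31.6 and 10.2 CPM against 1.48 and 0.557 CPM. The Hedgehog target Gli1 was at 1.37 and 3.06 CPM against 1.11 and 6.36 CPM and overlapped. Of 32 genes of TGF-beta, activin and BMP signaling, 27 were tested and only Fst was separated, where 0.842% of all tested genes were with the ovary higher. Of the 27, 1 did not overlap with the uterus higher and 7 with the ovary higher, where 12.3% and 14.1% of all tested genes did. The median was -0.38. Of 41 receptor tyrosine kinases and ligands, 35 were tested and only Ephb2 was separated, where 0.842% of all tested genes were with the ovary higher. Of the 35, 2 did not overlap with the uterus higher and 8 with the ovary higher, where 12.3% and 14.1% of all tested genes did. The median was -0.10.

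Of 24 matrix glycoproteins and proteoglycans, 23 were tested and 4 were separated with the ovary higher, where 0.842% of all tested genes were. Without a minimum gap, 2 of the 23 did not overlap with the uterus higher and 5 with the ovary higher, where 12.3% and 14.1% of all tested genes did, and the median log2 fold change was -0.01. Fn1, which encodes fibronectin, was at 13780 and 12030 CPM in F339 ROV and F318 LOV and at 5753 and 5584 CPM in the uterus lines, 2.09-fold apart between the nearest values (log2 fold change -1.17 ± 0.34 SE, unadjusted p = 0.018, adjusted p = 1 in edgeR). Fbln1, fibulin 1 of elastic fibers and basement membranes, was at 133.2 and 271.3 CPM against 28.8 and 1.81 CPM. Spp1, which encodes osteopontin, was at 306.3 and 292.8 CPM against 91.96 and 13.4 CPM, and Fmod, the collagen-binding fibromodulin, at 85.0 and 159.0 CPM against 30.8 and 41.5 CPM. Of 24 matrix proteases and inhibitors, 21 were tested and 3 were separated with the ovary higher, where 0.842% of all tested genes were. Of the 21, 2 did not overlap with the uterus higher and 6 with the ovary higher, where 12.3% and 14.1% of all tested genes did, and the median was -0.28. Adamts4, an aggrecan-cleaving protease, was at 49.8 and 47.4 CPM in the ovary lines and 18.7 and 14.02 CPM in the uterus lines. Adamts9 was at 8.90 and 7.38 CPM against 1.26 and 0.743 CPM, and Plat, tissue plasminogen activator, at 83.9 and 107.1 CPM against 38.3 and 24.4 CPM. Of 24 collagens, 22 were tested and 0 were separated, where 0.353% and 0.842% of all tested genes were. Of the 22, 2 did not overlap with the uterus higher and 4 with the ovary higher, where 12.3% and 14.1% of all tested genes did. The median was -0.27.

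A few developmental and oncofetal genes were also higher in both ovary lines. Plagl1, an imprinted zinc finger factor, was at 8.67 and 39.1 CPM in F339 ROV and F318 LOV and at 1.04 and 0.371 CPM in the uterus lines. Igf2bp3, an RNA-binding protein of fetal tissue and tumors, was at 25.6 and 50.8 CPM against 10.7 and 0.186 CPM. These were the 2 separated members among 15 tested of 21 imprinted and oncofetal genes, where 0.842% of all tested genes were separated with the ovary higher. Of the 15, 1 did not overlap with the uterus higher and 4 with the ovary higher, where 12.3% and 14.1% of all tested genes did, and the median log2 fold change was -0.85. Pax3, a factor of muscle precursors and neural crest, was at 9.998 and 9.82 CPM in the ovary lines and 0 and 1.39 CPM in the uterus lines. It was the only separated gene of the 8 tested in the list of developing muscle and myogenic regulators, where 0.842% of all tested genes were.

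Myc and Trp53, both part of the transgene, were not separated. Myc was at 183.9 and 280.1 CPM in F339 ROV and F318 LOV and at 290.5 and 153.1 CPM in the F319 and F333 uterus lines (log2 fold change -0.08 ± 0.41 SE, adjusted p = 1 in edgeR). Trp53 was at 29.3 and 33.9 CPM against 52.0 and 24.1 CPM (log2 fold change 0.25 ± 0.44 SE, adjusted p = 1 in edgeR). Leaving out 1 line at a time gave -0.50 to 0.28 for Myc and -0.29 to 0.62 for Trp53, so that both changed sign, with the lowest value of both without F319 uterus. In both genes the values of the organs overlapped, and the counts do not distinguish the transgene from the endogenous genes. For Trp53, the paper's PCR found no wild-type allele in the cell lines. Its check of the reads found mutant Trp53 expressed in all samples but the F361 tumor cells, which are not among these 4 lines. No gene was separated among the 24 p53 pathway genes, the 23 tested genes of the Myc network, the 24 proliferation genes, or the 16 cyclins and CDK inhibitors, and the list medians were -0.16, 0.01, -0.11 and -0.23. With 0.353% and 0.842% of all tested genes separated, lists of this size hold few such genes in any case, and nothing is read from the 0 counts. At any gap, 2, 1, 2 and 0 genes of these lists did not overlap with the uterus higher and 6, 3, 5 and 4 with the ovary higher, where 12.3% and 14.1% of all tested genes did.

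Among 31 interferon-stimulated and antigen presentation genes, 27 were tested, and 0 did not overlap in either direction, where 12.3% and 14.1% of all tested genes did, with a median of -0.98. The list summed to 1448 and 534.9 CPM in F339 ROV and F318 LOV and to 1371 and 510.9 CPM in F319 and F333 uterus, so 1 line of each organ was high. The members that follow were chosen after their values were seen. Ifit1, an interferon-induced antiviral protein, was at 69.8 CPM in F339 ROV and at 1.05, 8.39 and 1.95 CPM in F318 LOV, F319 uterus and F333 uterus. Isg15, a ubiquitin-like interferon product, was at 50.2 CPM against 2.40, 7.73 and 1.30 CPM. The antigen-presenting molecule H2-K1, by contrast, was highest in F319 uterus, at 152.3 CPM against 49.1, 14.01 and 35.4 CPM. Of 20 smooth muscle contractile genes, 19 were tested and 0 were separated, where 0.353% and 0.842% of all tested genes were. Of the 19, 5 did not overlap with the uterus higher and 1 with the ovary higher, where 12.3% and 14.1% of all tested genes did. Their median log2 fold change was 0.47, and nothing is read from counts over so few genes. Acta2, smooth muscle actin, was at 2891 and 2636 CPM in the ovary lines and 2974 and 3614 CPM in the uterus lines. No gene was separated among 19 tested chemokines and cytokines, 12 endothelial genes or 7 tested adipocyte genes, with medians of -0.60, 0.25 and 0.53. With 0.353% and 0.842% of all tested genes separated, lists of this size hold few such genes, and nothing is read from the 0 counts. In these lists, 3, 2 and 2 genes did not overlap with the uterus higher and 4, 0 and 0 with the ovary higher. Over all tested genes, 12.3% and 14.1% did. The endothelial list summed to 239.1 CPM in F339 ROV and to 6.77, 12.8 and 28.4 CPM in F318 LOV, F319 uterus and F333 uterus.

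The 5 ovary lines of libraries 1 to 7 give further values for ovary lines, in libraries with more muscle mRNA and from mice that partly overlap. The uterus lines are the same in this view, so the values are set side by side and not tested. Krt7 was at 0.127 to 12.04 CPM in these lines, with the highest value in F319 ROV, the ovary line of the mouse that gave F319 uterus. Krt80 was at 1.96 to 54.2 CPM, so that F318 ROV exceeded both uterus lines. Hoxc11 was at 8.80 to 11.9 CPM, between the 2 ovary and the 2 uterus lines of libraries 8 to 11. Krt88 was at 0.0896 CPM or less and Ppef1 at 0.114 CPM or less, both below the uterus lines. Hspb2 was at 36.8 to 73.9 CPM, above the uterus lines, in libraries with a muscle fiber share of 7.51% to 13.8%.

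Of the genes high in F339 ROV and F318 LOV, several were low in the 5 other ovary lines. Hoxd10 and Hoxd11 were at most 0.949 and 0.886 CPM there, and Slc1a3 at most 1.52 CPM. Tspan18 was at 2.66 to 30.2 CPM and Tbc1d9 at 4.37 to 9.48 CPM, lower than in F339 ROV and F318 LOV and above both uterus lines. Tmem176b was at 35.6 to 125.0 CPM and Tmem176a at 13.9 to 69.0 CPM, in the range of the 2 ovary lines or near it. Wnt4 was at 44.2 to 122.9 CPM and Adamts9 at 22.8 to 85.5 CPM, above all 4 lines. Fn1 was at 463.6 to 3096 CPM, below both uterus lines. Over the 131 genes separated with the ovary higher, both uterus lines were below all 7 ovary lines in 42, and over the 55 separated with the uterus higher, both uterus lines were above all 7 in 36. The same held for 389 and 884 of all 15566 tested genes. These can only lie among the 2202 and 1910 genes in which the 4 lines did not overlap. The separated genes were chosen because the uterus lines lay beyond F339 ROV and F318 LOV, 2 of the 7. Their higher share is thus partly fixed by that choice, and nothing is read from it.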

How the data were processed

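The authors aligned paired-end reads to mm10 (GRCm38) with STAR, removed PCR duplicates with SAMtools RmDup, and deposited featureCounts counts per gene without normalization. Reads carried no molecular identifiers, so Wilson intervals cover counting error only. From these counts, CPM was computed with library totals, and edgeR 4.0.16 (R 4.3.3) was fitted to the 4 libraries after TMM and filterByExpr, with Benjamini-Hochberg adjustment over 15566 of 28284 genes. The SE beside an edgeR log2 fold change is that value without its sign, divided by the square root of the F statistic of the quasi-likelihood test. It is not a spread measured between lines. DESeq2 1.42.0 was an alternative. Libraries 1 to 7 were left out of the fit. Groups came from sample titles. The lines and gene lists were chosen with earlier results of these data known. Genes named by rule were the 12 with the widest gaps in each direction (without unnamed gene models), Krt7, Hoxa11, Hoxa10, Hoxa13, HoxD genes, Wt1, Pax8, Pgr, Esr1, Myc, Trp53, and up to 4 separated genes per list and direction. Others, including list members given for their level, were chosen after their values were seen. Positions are from GENCODE M21, matched by symbol for 96.8% of tested genes. Nothing says whether the lines are clonal, and p-values measure only the spread between these lines.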

Additional observations from a re-analysis of the deposited data

How the results depend on the processing

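The number of genes passing edgeR's adjusted p of 0.05 stayed at 0 without TMM, with library class as a covariate over all 9 ovary and uterus lines, without muscle fiber and Y-linked genes, and without each line in turn (range 0 to 0). It was 117 with DESeq2 and 604 when every gene with at least 1 count was kept. In that fit the prior degrees of freedom were infinite, against a median of 3.13 with the filter, and 138 of the 186 separated genes were among the 604. DESeq2 called 99 of the 186. Over all genes in these fits, the calls were 604 of 25296 and 117 of 15566. The 186 were chosen by their gap in the same 4 libraries, so both overlaps are partly built in and nothing is read from them. The genes separated with the uterus and the ovary higher numbered 123 and 228 with a pseudocount of 0.1 CPM, 19 and 67 with 5 CPM, 7 and 33 with a gap of at least 2, and 1910 and 2202 with any gap. They stayed within 1.5 times of 55 and 131 with TMM library sizes (61 and 130, sharing 50 and 124 genes with the main sets), without the low-count filter, and without muscle fiber and Y-linked genes (57 and 129). Leaving out a line leaves 1 line on a side, and the counts were then 220 (without F318 LOV) to 504 (without F339 ROV) for the uterus and 435 (without F339 ROV) to 581 (without F318 LOV) for the ovary, as fewer values have to be exceeded. In these fits 210 of 216 log2 fold changes of the 54 named and tested genes kept their direction. The exceptions, given as the range over the fits that leave out 1 line, were Hoxa13 (-1.69 to 3.32), Pgr (-3.25 to 7.12), Esr1 (-0.47 to 3.97) and Trp53 (-0.29 to 0.62), each lowest without F319 uterus, and Myc (-0.50 to 0.28), which was positive without F318 LOV and without F333 uterus (0.22). The list medians moved by less than the spread between lines of one organ with DESeq2. The fit over 9 lines treats them as independent, although F319 ROV and F319 uterus, F318 ROV and F318 LOV, and F364 ROV and F364 LOV each come from 1 mouse. No paired analysis was possible because the 4 lines compared share no replicate number and come from 4 different mice.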
